A study of Mus musculus with 3 samples.

Results

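The genes described here encode enzymes that detoxify reactive molecules: glutathione transferases, sulfotransferases, aldehyde dehydrogenases, the enzymes that make and use glutathione, the peroxiredoxin and thioredoxin system, superoxide dismutases, catalase, quinone reductases and heme oxygenases, together with Nfe2l2 and Keap1. They were chosen by gene symbol alone, and 94 of the 34617 gene rows of the deposited table carry such a symbol. Total RNA depleted of ribosomal RNA was measured in mice aged 4 weeks, in sorted cells of the main olfactory epithelium, with 1 library per group. The O/Tet3 library (strain Fvb) came from mice carrying OMP-tTA and tetO-Tet3-GFP, in which a transactivator driven from Omp, the gene of olfactory marker protein, switches on a Tet3-GFP transgene. The mOSN library (strain C57BL/6J) came from cells positive for OMP-ires-EGFP, a green fluorescent reporter at Omp, which marks mature olfactory sensory neurons. Genotype, strain, reporter and library differ together and cannot be told apart. A difference describes these 2 libraries, has no replicate check and carries no p-value. In bulk samples such as these, fewer cells of a type and less RNA per cell cannot be told apart either.

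Glutathione is a small thiol that the peroxidases spend on peroxides and that the transferases attach to electrophiles; the thioredoxin system does related work through protein thiols. Sulfotransferases make hydroxyl compounds more soluble by adding sulfate, and aldehyde dehydrogenases turn aldehydes into acids. Many of these genes are switched on by the transcription factor Nrf2, encoded by Nfe2l2, which the adaptor Keap1 otherwise marks for degradation. The nasal epithelium meets inhaled chemicals directly and is known for high levels of such enzymes, much of it in its supporting (sustentacular) cells and glands. Among the neurons, Nqo1 is known in the mouse as a marker of those in the dorsal zone.

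A value is the number behind the deposited log2(value + 1), whose linear unit the file does not name. A gene was compared when at least 1 of its values reached 1. It counts as higher or lower in O/Tet3 when the log2 ratio of value + 1, O/Tet3 over mOSN, was at least 1 in size, and as within the bounds otherwise. Folds are ratios of the values themselves. Of the 94 genes, 49 were compared; 47 reached a value of 1 in O/Tet3 and 41 in mOSN. In the compared genes 10 were higher and 6 lower, or 20.4% and 12.2%. The floor bears on these counts, since 8 of the 49 passed it only through O/Tet3 and 2 only through mOSN. Of the higher genes, Gsta4, Gstp1, Gstp2, Gsto1 and Aldh9a1 passed only through O/Tet3, the library where they are high. The 2 that passed only through mOSN, Sult1c1 and Cat, were within the bounds. Of all 12943 compared rows, 16.5% were higher and 12.0% lower. Without olfactory receptor genes and pseudogenes those shares were 17.1% and 8.74%. Taken without any correction, the shares of these enzymes lay near the background. Their median log2 ratio of 0.22 lay beside 0.21 over all compared rows. The 9934 rows that reached 1 in both libraries had a median log2 ratio of 0.21. Relative to that shift, 9 of the 49 compared members were higher and 8 lower, against 1464 and 1953 of the 12943 compared rows. Higher calls then still outnumbered lower ones among the members, but not over all rows. Over all rows, the share of higher among higher and lower calls was then 42.8%, against 57.9% without the shift.

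Several facts of the libraries bear on all values. Tet3 stood at 145 in O/Tet3 and 3.72 in mOSN. All 11 mature neuron markers were lower in O/Tet3, with log2 ratios of −3.13 to −1.09 and a summed value of 717 in O/Tet3 and 3222 in mOSN. Immature neuron markers, 9 in number, gave 4 higher and 1 lower, or 3 and 2 relative to the shift, with sums of 149 in O/Tet3 and 89.6 in mOSN. The 11 sustentacular markers summed to 19.6 in O/Tet3 and 39.2 in mOSN. All 4 horizontal basal cell markers were listed at 0 in O/Tet3 and summed to 0.207 in mOSN, and the 5 progenitor markers summed to 0.918 in O/Tet3 and 0.688 in mOSN. Read counts are not in the file, but low values move in steps, from which a single read counted for 1.89 times as much value in O/Tet3 as in mOSN. For a transcript as long as an olfactory receptor's, 1 read stood for about 0.0503 in O/Tet3 and 0.0266 in mOSN. Reads given below at receptor length assume that length, since transcript lengths were not used here, and are not read counts of the gene. The part of cell makeup and of depth in the results below was not tested beyond the values given.

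**Figure D1:**
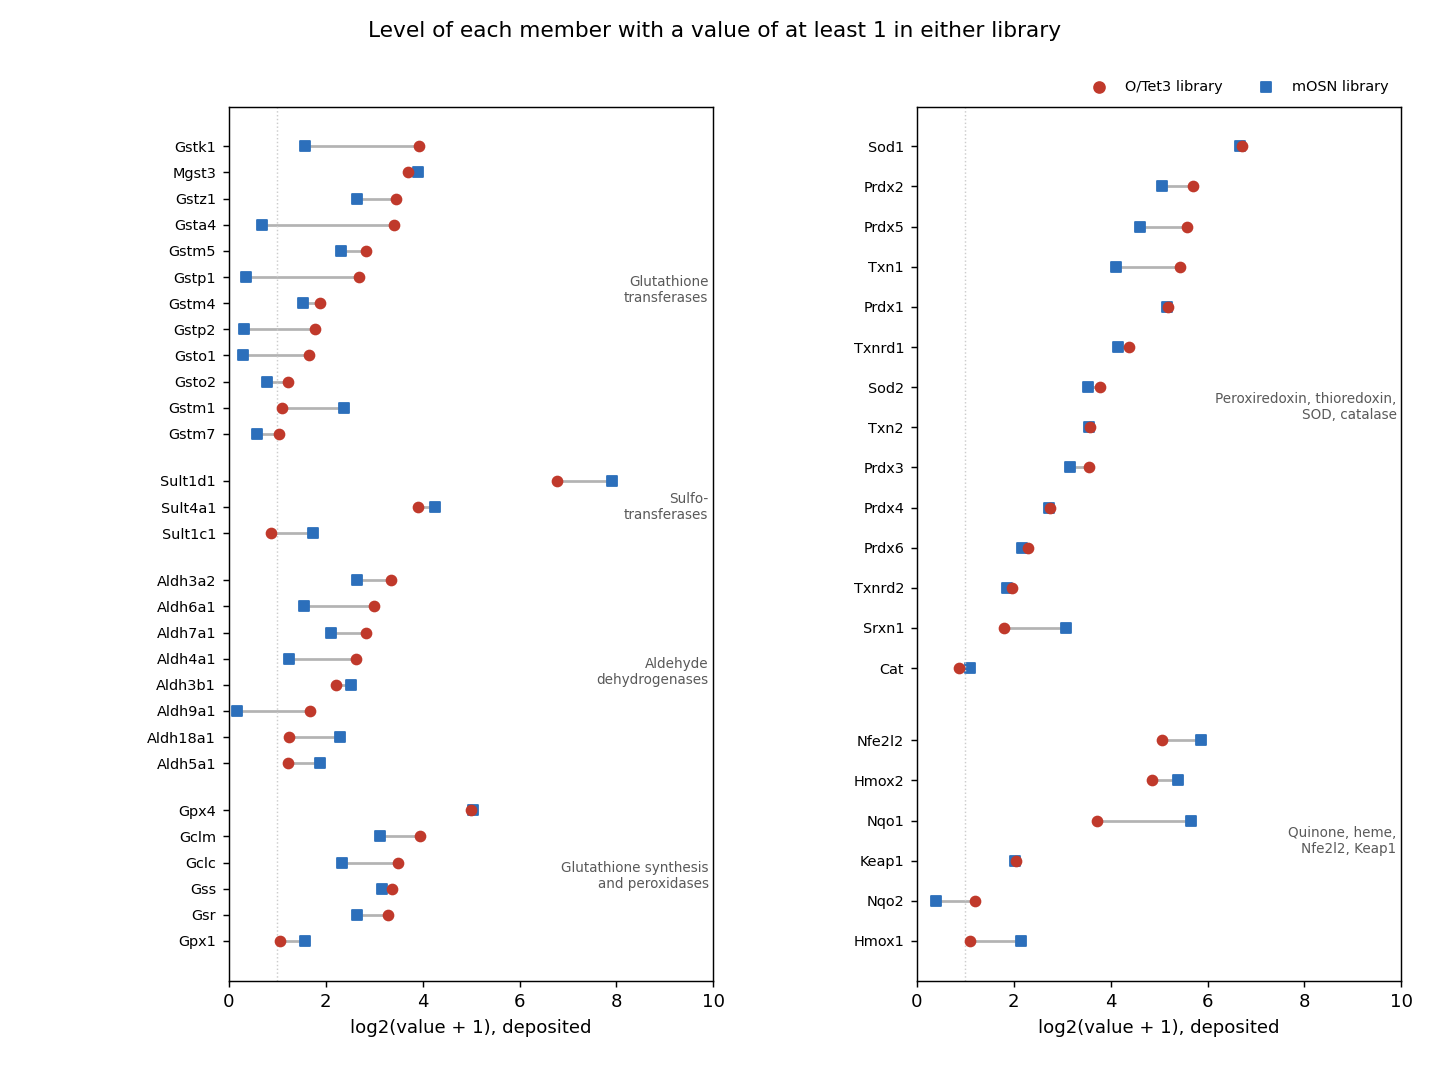
Level of each of the 49 compared enzymes and regulators, as log2(value + 1) on the horizontal axis, in the O/Tet3 library (red circles) and the mOSN library (blue squares), ordered within each family by the O/Tet3 value; the dotted line marks a value of 1. Sult1d1 and Sod1 stand farthest right in both libraries, and the widest gaps are in the glutathione transferases and at Nqo1.

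The glutathione transferases, the family with the most members, also had the most higher genes. Their 5 of 12 compared stand beside 3 of 8 in the aldehyde dehydrogenases and 16.5% of all compared rows. Of 24 listed, 12 were compared, 5 of them higher in O/Tet3 (Gsta4, Gstk1, Gstp1, Gstp2 and Gsto1), 1 lower (Gstm1) and 6 within the bounds. Their median log2 ratio was 0.67, or 0.47 relative to the shift of all rows. The summed values of all 24 were 68.9 in O/Tet3 and 36.5 in mOSN. Of the 12 compared, 6 passed the floor only through O/Tet3, 4 of the 5 higher genes among them. With no floor, the median over all 24 was 0.078, and with a floor of 5 it was 1.57 over 6 genes. The median thus depends on the floor. A fall with no floor was largely fixed in advance, since the added 1 draws the ratios of low values toward 0.

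Gsta4, an alpha-class enzyme known to conjugate the lipid peroxidation product 4-hydroxynonenal, was at 9.58 in O/Tet3 and 0.598 in mOSN, 16.0-fold higher (log2 ratio 2.73). Gstk1, the kappa-class enzyme of mitochondria and peroxisomes, was at 14.1 in O/Tet3 and 1.96 in mOSN, 7.18-fold higher (log2 ratio 2.35). These were the highest log2 ratios among the members, at percentiles 98.69 and 98.04 of all compared rows. Gsto1, an omega-class enzyme with thiol transferase activity, was at 2.15 in O/Tet3 and 0.227 in mOSN. At receptor length these values would be 42.7 reads in O/Tet3 and 8.52 in mOSN. Its neighbour on the chromosome, Gsto2, was at 1.33 in O/Tet3 and 0.718 in mOSN, within the bounds.

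The pi-class pair Gstp1 and Gstp2 lie next to each other on mouse chromosome 19 in the RefSeq annotation. Gstp1 was at 5.40 in O/Tet3 and 0.278 in mOSN, 19.4-fold higher, and Gstp2 at 2.45 in O/Tet3 and 0.245 in mOSN, 10.02-fold higher. The pair stood within 1.14-fold of each other in mOSN, while Gstp1 was 2.201-fold above Gstp2 in O/Tet3. At receptor length, the mOSN values would be 10.4 and 9.20 reads. The pair are near-identical copies, and how shared reads were split between them is not stated, so the 2 values are uncertain as separate measurements. Their RefSeq promoter windows, from 250 bases before the start to 50 after it, were 85.2% identical over 284 aligned positions, with a longest shared run of 43 bases. Both windows hold TGAGTCAGC, a sequence known to be bound by Nrf2 with small Maf proteins and, in its first letters, by AP-1. The match lies 74 bases before the start in Gstp1 and 89 before it in Gstp2. The stretches around it (GRCm38.p6, minus strand, chr19:4037958-4038006 and chr19:4042282-4042330) are shown because both rows were higher in O/Tet3, with the match in capitals.
Gstp1: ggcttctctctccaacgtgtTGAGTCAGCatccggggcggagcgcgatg
Gstp2: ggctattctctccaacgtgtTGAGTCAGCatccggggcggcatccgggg

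The mu-class genes, 7 neighbours on mouse chromosome 3, did not move as 1 block. Gstm1 was lower, at 1.15 in O/Tet3 and 4.22 in mOSN, 3.68-fold lower (log2 ratio −1.28). Gstm5 was at 6.17 in O/Tet3 and 3.95 in mOSN, Gstm4 at 2.68 in O/Tet3 and 1.90 in mOSN, and Gstm7 at 1.05 in O/Tet3 and 0.502 in mOSN, all within the bounds. Gstm2 stayed just under the floor, at 0.0689 in O/Tet3 and 0.964 in mOSN. So the 2 mu-class genes lowest relative to mOSN, Gstm1 and Gstm2, are direct neighbours, and the 3 other compared genes of the cluster had higher values in O/Tet3 than in mOSN. Near-identical exons within this cluster make single values uncertain.

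The 2 transferases with the highest mOSN values stayed within the bounds. Mgst3, a membrane-bound transferase and peroxidase, was at 11.9 in O/Tet3 and 13.95 in mOSN. Gstz1, the zeta-class enzyme that works as maleylacetoacetate isomerase in tyrosine breakdown, was at 9.93 in O/Tet3 and 5.22 in mOSN. The make-up of the family differed with the genes above. Mgst3 held 17.3% of the summed transferase values in O/Tet3 and 38.2% in mOSN, Gstk1 20.4% in O/Tet3 and 5.38% in mOSN, and Gsta4 13.9% in O/Tet3 and 1.64% in mOSN. The other 12 transferases stayed below 1 in both libraries, among them the theta class and Mgst1, which was at 0.156 in O/Tet3 and 0.390 in mOSN. Gstt2 and Gstt4 were listed at 0 in both libraries.

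**Figure D2:**
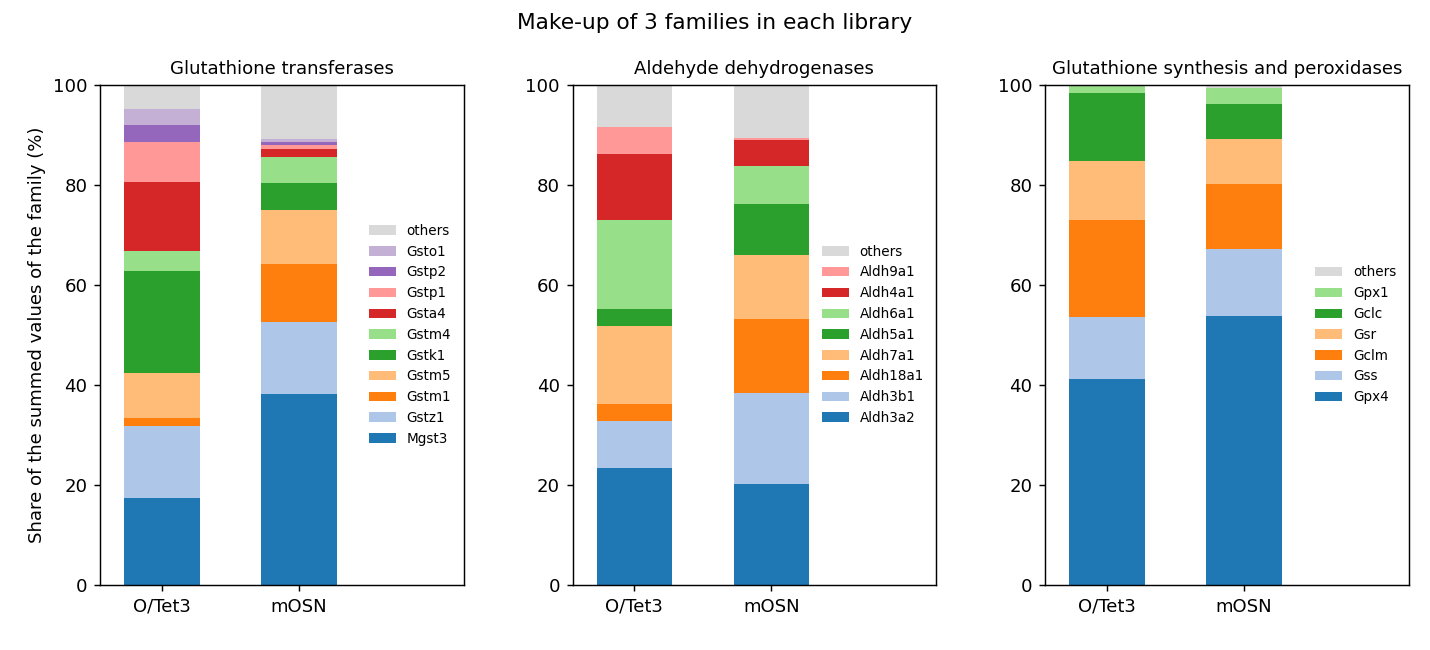
Share of the summed values (vertical axis, percent) that each gene holds within 3 families, in the O/Tet3 library (left bar) and the mOSN library (right bar); genes under 3% in both are pooled as others. Gstk1 and Gsta4 take larger shares of the transferases in O/Tet3 and Mgst3 a larger share in mOSN, where Gpx4 also holds more of the glutathione enzymes.

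Of 17 sulfotransferases, 3 were compared and 9 were listed at 0 in both libraries. Sult1d1, which in the mouse sulfates catecholamines such as dopamine and their metabolites, was the highest of all 94 genes in both libraries. It was at 109 in O/Tet3 and 239 in mOSN, 2.19-fold lower (log2 ratio −1.12). Only 198 rows in O/Tet3 and 64 in mOSN were at or above it, Sult1d1 included. Its log2 ratio lies at the edge of the range of the 11 mature neuron markers, whose median was −2.23. Only Omp, at −1.09, was less low. Sult4a1, a sulfotransferase-like protein of neurons, was at 14.0 in O/Tet3 and 18.2 in mOSN, within the bounds. Sult1c1 was at 0.816 in O/Tet3 and 2.33 in mOSN, a log2 ratio of −0.87 that became −1.08 relative to the shift of all rows; it passed the floor only through mOSN. Sult1b1 and Sult1e1, the genes on either side of Sult1d1 on mouse chromosome 5, were low: Sult1b1 was at 0.0745 in O/Tet3 and listed at 0 in mOSN, and Sult1e1 was listed at 0 in O/Tet3 and at 0.208 in mOSN.

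Papss1, which makes the sulfate donor PAPS, was higher, at 10.8 in O/Tet3 and 4.62 in mOSN, with a log2 ratio of 1.07 that came within the bounds relative to the shift (0.87). Its sister Papss2 was at 2.10 in O/Tet3 and 3.24 in mOSN. Of the 8 genes listed for sulfate donor supply and tyrosine sulfation, 1 was higher and 0 lower (median log2 ratio 0.16), and relative to the shift 0 were higher and 0 lower.

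Of 19 aldehyde dehydrogenases, 8 were compared, 3 of them higher, 1 lower and 4 within the bounds. Over all compared rows, 16.5% were higher and 12.0% lower. The median log2 ratio was 0.71, against 0.047 over all 19 with no floor and 1.05 over 4 genes with a floor of 5. The 3 higher genes work in the breakdown of amino acids or in carnitine synthesis. Aldh4a1, the mitochondrial enzyme that completes proline breakdown, was at 5.17 in O/Tet3 and 1.35 in mOSN, 3.83-fold higher. Aldh6a1, the methylmalonate semialdehyde dehydrogenase of valine breakdown, was at 6.95 in O/Tet3 and 1.95 in mOSN, 3.57-fold higher. Aldh9a1, which acts in carnitine synthesis, was at 2.18 in O/Tet3 and 0.117 in mOSN; the mOSN value would be 4.40 reads at receptor length, and the values differ 18.6-fold. The lower gene was Aldh18a1, which starts proline synthesis, at 1.37 in O/Tet3 and 3.87 in mOSN, 2.84-fold lower. So 1 gene of proline breakdown was higher and 1 of proline synthesis was lower, and no other genes of these paths were looked at.

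Aldh3a2, the fatty aldehyde dehydrogenase, had the highest level of the family, 9.17 in O/Tet3 and 5.26 in mOSN. Aldh7a1, of lysine breakdown, was at 6.08 in O/Tet3 and 3.30 in mOSN, and Aldh3b1 at 3.62 in O/Tet3 and 4.72 in mOSN. Aldh5a1, which clears the succinate semialdehyde left from the transmitter GABA, was at 1.33 in O/Tet3 and 2.68 in mOSN. These 4 were within the bounds. The retinaldehyde dehydrogenases, which make retinoic acid, were below the floor: Aldh1a1 was at 0.125 in O/Tet3 and 0.584 in mOSN, Aldh1a3 at 0.676 in O/Tet3 and 0.0467 in mOSN, and Aldh1a2 was listed at 0 in both libraries. Aldh2, the mitochondrial acetaldehyde enzyme, has a symbol outside the pattern used and was at 2.13 in O/Tet3 and 0.811 in mOSN. Among 15 other aldehyde and retinoid genes in the table, Aldh2 among them, 4 were compared and 1 was lower. That was Dhrs3, which reduces retinaldehyde, at 0.552 in O/Tet3 and 5.61 in mOSN, 10.1-fold lower.

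Of 12 genes of glutathione synthesis, its recycling and the peroxidases, 6 were compared, with 1 higher, 0 lower and 5 within the bounds (median log2 ratio 0.43). Relative to the shift of all rows, 0 were past the bounds. Gclc, the catalytic subunit of the rate-limiting ligase, was at 10.2 in O/Tet3 and 4.08 in mOSN, 2.49-fold higher (log2 ratio 1.14, or 0.93 relative to the shift of all rows, within the bounds). Gclm, its modifier subunit, was at 14.4 in O/Tet3 and 7.75 in mOSN, within the bounds. Gclc stood at 0.705 of the Gclm value in O/Tet3 and at 0.527 in mOSN. Gss, which adds the last amino acid, was at 9.35 in O/Tet3 and 7.91 in mOSN, and Gsr, which recycles oxidised glutathione, at 8.80 in O/Tet3 and 5.28 in mOSN, both within the bounds. Gpx4, which reduces lipid hydroperoxides in membranes, was at 30.8 in O/Tet3 and 31.8 in mOSN, the highest of these genes in both and within the bounds. Gpx1, the main cytosolic peroxidase in many tissues, was at 1.08 in O/Tet3 and 1.99 in mOSN, also within the bounds. The other 6 peroxidases were below 1, and Gpx2, Gpx7 and Gpx8 were listed at 0 in both libraries.

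Of 24 further genes of the glutathione cycle and of thiol transfer, 16 were compared, 3 higher and 1 lower (median log2 ratio 0.14), or 2 and 1 relative to the shift. The 3 higher genes were Glrx, the cytosolic glutaredoxin, at 2.92 in O/Tet3 and 0.123 in mOSN, Glrx3, a glutaredoxin of iron handling, at 25.5 in O/Tet3 and 7.52 in mOSN, and Mat2a, which makes S-adenosylmethionine, at 26.7 in O/Tet3 and 11.6 in mOSN. Glrx passed the floor only through O/Tet3, and its mOSN value would be 4.61 reads at receptor length. The log2 ratio of Mat2a, 1.14, came within the bounds relative to the shift (0.93). The lower gene, Cbs, starts the path from homocysteine to cysteine and was at 0.505 in O/Tet3 and 3.18 in mOSN. Cbs passed the floor only through mOSN, and its O/Tet3 value would be 10.1 reads at receptor length. Slc7a11, the cystine importer that feeds glutathione synthesis, was at 1.28 in O/Tet3 and 0.745 in mOSN, within the bounds. Ggt1, which begins the breakdown of glutathione outside cells, was listed at 0 in both libraries.

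**Figure D3:**
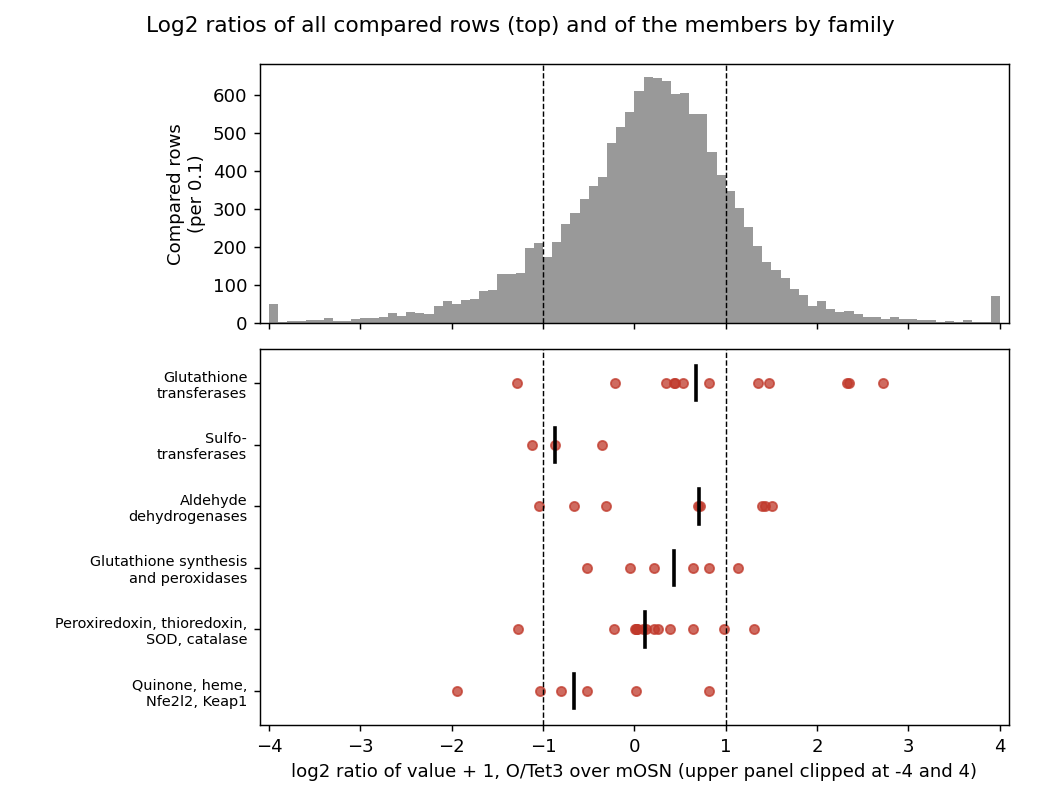
Log2 ratios of value + 1, O/Tet3 over mOSN (horizontal axis), for all 12943 compared rows as a histogram (top) and for each compared member by family (bottom, red points; black bars are family medians); dashed lines mark −1 and 1. The points of all families but the sulfotransferases, of which only 3 were compared, lie on both sides of 0. Of the 12 transferases 6, and of the 8 aldehyde dehydrogenases 1, passed the floor only through O/Tet3. With no floor their medians of 0.67 and 0.71 become 0.078 and 0.047, and with a floor of 5 they become 1.57 and 1.05.

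The peroxiredoxins, thioredoxins, superoxide dismutases and catalase differed little as a group. Of 16 genes, 14 were compared, with 1 higher, 1 lower and 12 within the bounds; the median log2 ratio was 0.11, and −0.09 relative to the shift of all rows. Txn1, the cytosolic thioredoxin that returns electrons to peroxiredoxins, was higher, at 41.8 in O/Tet3 and 16.2 in mOSN, 2.58-fold (log2 ratio 1.31). Its mitochondrial counterpart Txn2 was at 10.9 in O/Tet3 and 10.7 in mOSN. Txnrd1, the reductase of Txn1, was at 19.7 in O/Tet3 and 16.9 in mOSN, so that Txn1 stood at 2.12 times the Txnrd1 value in O/Tet3 and at 0.964 of it in mOSN. Txnip, which binds and inhibits thioredoxin, was also higher, at 13.8 in O/Tet3 and 3.99 in mOSN. Txnrd2, the mitochondrial reductase, was at 2.89 in O/Tet3 and 2.64 in mOSN.

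Srxn1, the sulfiredoxin that repairs over-oxidised peroxiredoxins, was the lower gene, at 2.47 in O/Tet3 and 7.42 in mOSN, 3.01-fold lower (log2 ratio −1.28). Its substrate Prdx1 was at 35.1 in O/Tet3 and 35.0 in mOSN. Prdx2, another cytosolic peroxiredoxin, was at 50.8 in O/Tet3 and 32.3 in mOSN. Prdx5, found in mitochondria and peroxisomes, lay just inside the bounds, at 46.7 in O/Tet3 and 23.2 in mOSN (log2 ratio 0.98). The mitochondrial Prdx3, at 10.7 in O/Tet3 and 7.91 in mOSN, the endoplasmic reticulum Prdx4, at 5.69 in O/Tet3 and 5.58 in mOSN, and Prdx6, at 3.92 in O/Tet3 and 3.50 in mOSN, differed little in value. Prdx2 is also abundant in red blood cells, whose 7 markers summed to 41.6 in O/Tet3 and 63.5 in mOSN.

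Sod1, the cytosolic copper and zinc superoxide dismutase, was at 103 in O/Tet3 and 101 in mOSN, second in level to Sult1d1 among the 94 genes in both libraries. Ccs, the chaperone that loads copper into Sod1, was at 9.79 in O/Tet3 and 4.69 in mOSN, within the bounds (log2 ratio 0.92). The mitochondrial Sod2 was at 12.8 in O/Tet3 and 10.5 in mOSN, and Sod3, the extracellular form, at 0.185 in O/Tet3 and 0.0429 in mOSN. Cat, the peroxisomal catalase, was low, at 0.818 in O/Tet3 and 1.13 in mOSN. Of 16 further thioredoxin-linked and repair genes, 14 were compared, 2 higher and 0 lower (median log2 ratio 0.66), and 2 and 1 relative to the shift, where Sepp1 is at −1.13; beside Txnip, the higher gene was Txndc17, a small thioredoxin-like protein, at 14.9 in O/Tet3 and 5.74 in mOSN.

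Nqo1, the quinone reductase that passes electrons in pairs, had the lowest log2 ratio of the 94 genes. It was at 12.2 in O/Tet3 and 49.7 in mOSN, 4.08-fold lower (log2 ratio −1.94), at percentile 3.33 of all compared rows. This log2 ratio lies within the range of the 11 mature neuron markers, whose median was −2.23. Nqo2, a relative that uses another cofactor, was at 1.30 in O/Tet3 and 0.308 in mOSN, within the bounds. Hmox1, the inducible heme oxygenase, was lower, at 1.15 in O/Tet3 and 3.41 in mOSN (2.97-fold). The constitutive Hmox2 was at 28.1 in O/Tet3 and 40.8 in mOSN, and stood 24.4-fold above Hmox1 in O/Tet3 and 12.0-fold above it in mOSN.

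Since Nqo1 marks neurons of the dorsal zone, the other zone markers are given beside it. Acsm4, also dorsal, was within the bounds, at 45.5 in O/Tet3 and 28.5 in mOSN, so that Nqo1 stood at 0.268 of the Acsm4 value in O/Tet3 and at 1.74 times it in mOSN. Robo2, a guidance receptor high in dorsal neurons, was at 15.9 in O/Tet3 and 33.3 in mOSN, 2.10-fold lower. Of the ventral markers, Ncam2, an adhesion molecule, was at 13.6 in O/Tet3 and 44.3 in mOSN, 3.25-fold lower, and Nrp2, a semaphorin receptor, was within the bounds, at 20.2 in O/Tet3 and 16.9 in mOSN.

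Nfe2l2, encoding Nrf2, was at 32.4 in O/Tet3 and 57.1 in mOSN, 1.76-fold lower, with a log2 ratio of −0.80 that reached −1.004 relative to the shift of all rows. Keap1 was at 3.12 in O/Tet3 and 3.06 in mOSN. Cul3, the ubiquitin ligase scaffold that Keap1 brings to Nrf2, was at 77.5 in O/Tet3 and 81.1 in mOSN, and its partner Rbx1 was higher, at 36.5 in O/Tet3 and 16.2 in mOSN. Of the 11 Nrf2 partners and regulators, 1 was higher and 0 lower (median log2 ratio −0.07). Relative to the shift, 0 were higher and 1 lower: Rbx1 came to 0.92 and Mafg, a small Maf partner of Nrf2, to −1.08. Well-known Nrf2 targets among the members, grouped here after their values were seen, did not go 1 way: Nqo1, Srxn1, Hmox1 and Gstm1 were lower, while Gclc, Txn1 and the Gstp pair were higher and Gclm, Gsr, Prdx1 and Txnrd1 were within the bounds. Of 16 compared other Nrf2 targets, 4 were higher and 1 lower, with and without the shift (median log2 ratio 0.39). The ferritin light chain Ftl1 was at 27.1 in O/Tet3 and 9.31 in mOSN, and Me1, an NADPH-making malic enzyme, at 10.4 in O/Tet3 and 3.58 in mOSN. The other higher genes, Ptgr1 at 1.68 and Blvrb at 1.51 in O/Tet3, were listed at 0 in mOSN. The exporter Abcc1 was lower, at 4.43 in O/Tet3 and 25.9 in mOSN, 5.86-fold. G6pdx, which makes NADPH for glutathione and thioredoxin reductases, was at 11.1 in O/Tet3 and 10.7 in mOSN.

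Promoter windows of 300 bases from RefSeq (GRCm38.p6) were matched by symbol for 79 of the 94 genes and searched on both strands for letters of the antioxidant response element, the site Nrf2 binds. TGACNNNGC was found in windows of 12 of the 79 genes (15.2%) and of 14.0% of all 27025 genes with a window. Over the 79 it was thus about as frequent as elsewhere. Of the 42 compared genes with a window, 9 held it (21.4%), a difference that was not tested. TGAGTCAGC, a spelling searched after these promoters had been read, was found in 3 of the 79, which were Gstp1, Gstp2 and Srxn1, and in 0.481% of all genes. The spellings can overlap, but no member's matches did. A match is a description of letters and not a measured binding site. Of the 9 compared genes with TGACNNNGC, 1 was higher (Aldh9a1), 1 lower (Srxn1, whose match begins 29 bases into the transcript) and the others were within the bounds. Of the 3 genes with TGAGTCAGC, the Gstp pair were higher and Srxn1 was lower. Windows of members with a match before the start are printed for the lower Srxn1, for Nfe2l2 itself and for 3 genes within the bounds; capitals mark the match, which reads as the reverse complement in Gclm, Prdx1 and Txnrd1. They lie at chr2:152105459-152105507 (plus strand, Srxn1), chr3:122245403-122245451 (plus strand, Gclm), chr4:116685446-116685494 (plus strand, Prdx1), chr10:82859094-82859142 (plus strand, Txnrd1) and chr2:75704875-75704913 (minus strand, Nfe2l2).
Srxn1: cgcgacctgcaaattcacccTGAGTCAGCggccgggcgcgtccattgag
Gclm: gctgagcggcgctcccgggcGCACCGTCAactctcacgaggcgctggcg
Prdx1: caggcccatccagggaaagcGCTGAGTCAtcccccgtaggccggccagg
Txnrd1: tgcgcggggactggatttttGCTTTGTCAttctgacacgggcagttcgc
Nfe2l2: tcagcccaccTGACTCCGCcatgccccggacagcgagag

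Tet enzymes act on methylated cytosines in CpG dinucleotides, so the CpGs of the windows were counted. For a gene with several start windows, the highest count was taken. The 8 higher members with a window held a median of 12.5 CpGs (range 9 to 26). The 5 lower members held 14.0 (3 to 26) and the 29 members within the bounds 19.0 (4 to 48). Over all 79 members with a window the median was 12.0, and over the 42 compared ones 17.0. It was 8 over all 27025 genes with a window, whether or not they were compared. The ranges of higher and lower members overlapped. Among the lower genes, Nqo1 and Sult1d1 were CpG-poor, with 5 and 3 CpGs, while Srxn1 had 26. The higher Gstk1 had 13. Gstk1, Nqo1 and Sult1d1 are picked examples and do not stand for their groups, since the medians of higher and lower members run the other way. Their last 120 bases before the start are shown with CpGs in capitals. Gstk1 lies at chr6:42245815-42245934 (plus strand), Nqo1 at chr8:107403206-107403325 (minus strand) and Sult1d1 at chr5:87569007-87569126 (minus strand).
Gstk1: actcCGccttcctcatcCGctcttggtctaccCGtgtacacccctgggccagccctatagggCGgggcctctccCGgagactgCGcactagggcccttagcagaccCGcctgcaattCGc
Nqo1: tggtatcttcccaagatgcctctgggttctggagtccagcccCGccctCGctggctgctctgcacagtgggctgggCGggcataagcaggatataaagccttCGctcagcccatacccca
Sult1d1: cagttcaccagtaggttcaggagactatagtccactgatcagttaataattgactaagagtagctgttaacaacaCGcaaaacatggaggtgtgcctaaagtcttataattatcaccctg

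**Figure D4:**
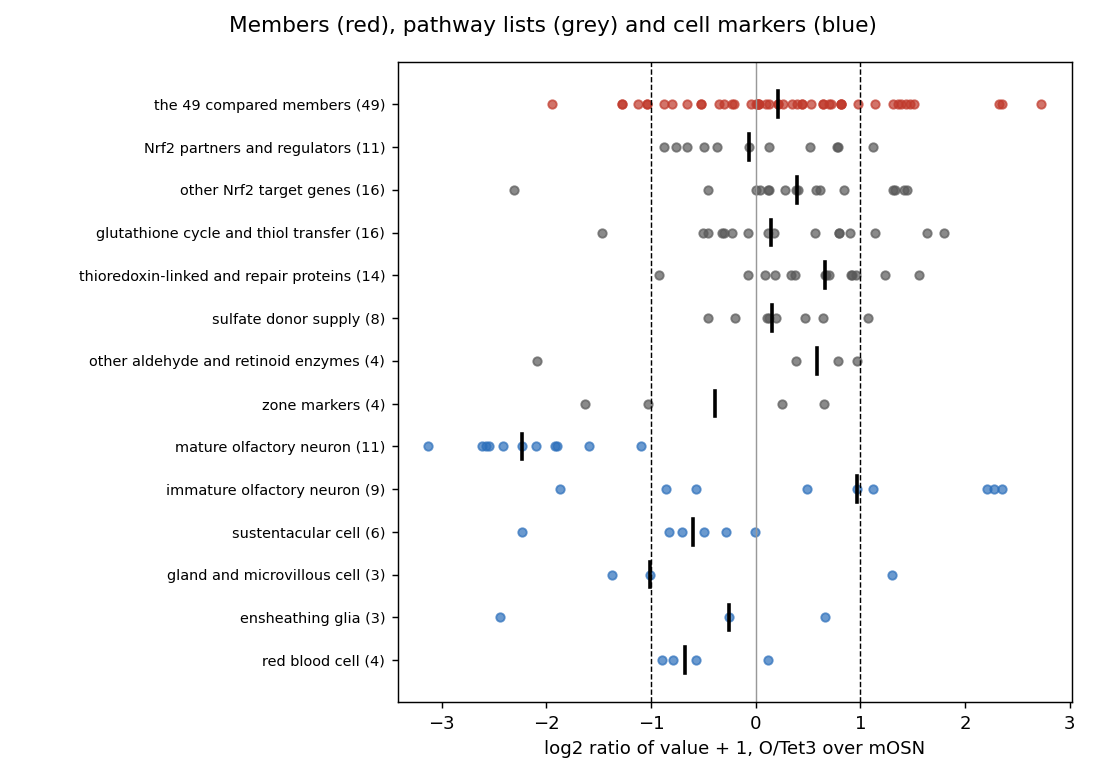
Log2 ratios of value + 1, O/Tet3 over mOSN (horizontal axis), for the 49 compared members (red), the pathway lists (grey) and the cell marker lists (blue), with the number of compared genes in brackets and medians as black bars; dashed lines mark −1 and 1. All 11 mature neuron markers lie left of −1, while the members spread around their median of 0.22.

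Markers of other cell types are set beside the enzymes, since supporting cells, glands and blood express several of them. Of the 11 sustentacular markers, 6 were compared and 1 was lower, or 2 relative to the shift, where the keratin Krt8 came to −1.03. The lower gene was Ugt2a1, a glucuronosyltransferase, at 2.53 in O/Tet3 and 15.6 in mOSN. Cyp2a5 was at 9.29 in O/Tet3 and 11.6 in mOSN, and Cyp2g1 at 1.76 in O/Tet3 and 2.89 in mOSN. Cbr2, also among the 11, was at 3.65 in O/Tet3 and 3.67 in mOSN. Ugt2a1 had the highest mOSN value of the 11, so it weighs most in their mOSN sum. The 8 gland and microvillous markers in the table summed to 3.95 in O/Tet3 and 4.61 in mOSN, but the 3 that were compared were all past the bounds, 1 higher and 2 lower. Pou2f3, a factor of microvillous cells, was higher, at 2.90 in O/Tet3 and 0.582 in mOSN. Ascl3 and Cftr were listed at 0 in O/Tet3 and were at 1.58 and 1.02 in mOSN. The 6 macrophage and leukocyte markers summed to 1.34 in O/Tet3 and 2.04 in mOSN. The 6 ensheathing glia markers summed to 1.94 in O/Tet3 and 7.22 in mOSN, where Fabp7 alone was at 4.78. Their part in the levels of the enzymes was not tested.

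The 45 members that were not compared stayed below 1 in both libraries, the highest being Txnrd3 at 0.677 in O/Tet3 and 0.968 in mOSN. Of these, 15 were listed at 0 in both libraries, 9 of them sulfotransferases. An exact 0 in such a table can be a failed estimate, so it is given only as listed.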

How the data were processed

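RNA of sorted cells was measured in 2 libraries, O/Tet3 and mOSN. The third sample, DNA immunoprecipitated for 5-hydroxymethylcytosine, was not analysed here. Bowtie, Bowtie2, Cuffdiff and genome build mm9 are named without roles in the submitters' processing notes. The authors deposited, for each gene row, log2 values per library and their difference. The deposited columns equal log2(value + 1) with a lowest value of 0; the linear unit, annotation, strand setting and read counts are not given in the sources used here, so reads shared by paralogs, processed pseudogenes or overlapping genes could not be separated, and depth is known only through the steps of low values.

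Columns were assigned by their names. With 1 library per group there is no test, and counts and medians describe these libraries. In O/Tet3, the value of 1 read was the most common low value of receptor genes, searched under a fixed limit. A modal log2 ratio came from 3757 rows with values above 0 and below 0.5 in both libraries. The mOSN value of 1 read was not measured by itself, but was the O/Tet3 value divided by the fold of that ratio, 1.89. Members, 7 pathway lists, 9 marker lists and alternatives were chosen with earlier results of these data known. Every compared member could be named, with up to 4 genes per pathway list and genes paired with a member in 1 reaction; other genes beside them were chosen after their values were seen. Alternatives were a floor of 5, no floor, a pseudocount of 0.1, 3-fold in place of 2-fold, centring on all rows, leaving out rows listed at 0 in 1 library and, chosen after seeing the data, no pseudocount. Counting was tested on simulated data. Python 3.11.15, numpy 2.4.6, pandas 2.3.3 and scipy 1.17.1 were used; promoter sequences and gene order are RefSeq's for GRCm38.p6, and no coordinates of the deposited build are given.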

Additional observations from a re-analysis of the deposited data

How the results depend on the processing

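No paired analysis was possible because neither group holds more than its single library. At 3-fold, 3 of the 49 members were higher and 1 lower, against 745 and 673 of the 12943 compared rows. With a floor of 5, 7 of 31 members were higher and 3 lower, against 1401 and 793 of all rows at that floor. Both settings count fewer genes by construction. With a pseudocount of 0.1, 12 of the 49 members were higher and 7 lower, against 3025 and 2025 of the 12943 compared rows. With no pseudocount, 13 of the 49 were higher and 8 lower, against 2945 and 1609 of the rows above 0 in both libraries. The total of all rows was not counted for the floor of 5 or for no pseudocount. In those 2 settings the members thus have no background share beside them. With no floor the median log2 ratio became 0.00 for all members, 0.078 for glutathione transferases, 0.047 for aldehyde dehydrogenases, 0.00 for glutathione synthesis and peroxidases and 0.00 for sulfotransferases, since genes at low values or listed at 0 then enter. Centring subtracts 0.21 from every ratio, which put the median of all members at 0.010 and turned that of the peroxiredoxin, thioredoxin, superoxide dismutase and catalase genes to −0.093. For sulfotransferases the median came to −1.130 with a pseudocount of 0.1 and to −1.131 without one. Another 50 counts and medians stayed inside set limits. These were 1.5 times the reported count, or the reported median's interval over genes (its range where too few genes gave none). Genes, not libraries, are the units of that interval. For the aldehyde dehydrogenases it spanned all compared genes, −1.04 to 1.51. For glutathione synthesis and peroxidases it did so too, −0.52 to 1.14. The no-floor medians of both families thus count among the 50, although they fell from 0.71 to 0.047 and from 0.43 to 0.00. Limits this wide are hard to leave, so for these families staying inside was no check of stability. Of single genes, 5 moved by at least 1 in log2 ratio with a pseudocount of 0.1, to 3.86 for Gstp1, 3.79 for Gsta4, 3.39 for Aldh9a1, 2.89 for Gstp2 and 2.78 for Gsto1, all of which had mOSN values below 1. A member past the bounds cannot change sign with another pseudocount or with centring by 0.21, so its sign was no check. Fewer reads per unit of value in O/Tet3 limit values near 0.0503 there.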

Other observations

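Near relatives whose symbols fall outside the pattern were looked at after the results were seen. Gpx2-ps1, a row named as a pseudogene of Gpx2, was at 1.05 in O/Tet3 and listed at 0 in mOSN, while Gpx2 itself was listed at 0 in both libraries. The rows Gstm2-ps1, Prdx6b, Prdx2-rs3 and Prdx6-ps2 were listed at 0 in both libraries, so that no value was assigned to these copies. The next 7 genes, a selection of those named for a thioredoxin or glutathione transferase likeness, were within the bounds, unlike Txndc17 above. Txndc9 was at 19.7 in O/Tet3 and 14.9 in mOSN, Txndc16 at 11.2 in O/Tet3 and 8.05 in mOSN, Txndc15 at 9.78 in O/Tet3 and 8.05 in mOSN, Txndc11 at 4.35 in O/Tet3 and 5.34 in mOSN, Txnl4a, a spliceosome protein, at 6.69 in O/Tet3 and 4.28 in mOSN, and Txnl4b at 1.82 in O/Tet3 and 0.808 in mOSN. Gstcd was at 1.20 in O/Tet3 and 0.693 in mOSN.

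The order of the highest members depends on the scale. On log2(value + 1), Gsta4, Gstk1 and Gstp1 had the highest ratios. As folds of the values, Gstp1 at 19.4-fold, Aldh9a1 at 18.6-fold and Gsta4 at 16.0-fold came first, and Gstk1, whose mOSN value of 1.96 was the highest of the 4, was 7.18-fold higher.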
